A study of Homo sapiens with 4 samples.

Results

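The genes of respiratory complex I were examined in SKOV3-ALDH+ OCSCs, and were chosen by name, as the rows whose gene symbol begins with NDUF. Of 23228 gene rows, 44 did so. They comprised 39 subunit genes (NDUFA, NDUFAB, NDUFB, NDUFC, NDUFS and NDUFV), 4 assembly factor genes (NDUFAF1 to NDUFAF4) and 1 readthrough row, NDUFC2-KCTD14, which held 0 reads in every sample. SKOV3 is a long-established line of human ovarian cancer cells, and ALDH+ OCSCs are its members sorted by flow cytometry for high aldehyde dehydrogenase activity and then grown as spheroids. They received vehicle (2 samples) or the ERβ agonist LY500307 at 5 µM (2 samples), both for 24 h, and RNA was sequenced to ask which transcripts the agonist altered. All 4 samples come from this cell line, and the sources used here do not say whether the 2 samples of a group were separate cultures, so the spread between them may be technical. In such bulk RNA, fewer cells of a type and less RNA per cell cannot be told apart.

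Complex I is the entry point of the mitochondrial respiratory chain. It oxidises NADH, passes the electrons along iron-sulfur clusters to ubiquinone and pumps protons across the inner membrane. A matrix arm holds the NADH and quinone modules, a membrane arm holds the proton pumps, and the core of the enzyme is built partly from nuclear genes and partly from mitochondrial genes. Accessory subunits surround this core, and assembly factors bring the modules together without staying in the finished enzyme. The mitochondrially encoded subunits had no row in the deposited counts under the symbols searched for, so they could not be analysed here.

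Reads counted on genes ranged from 28841701 to 34943882 per sample, and the 43 subunit and assembly factor genes all passed the filter on low counts. Reads on no gene took from 18.96% to 20.52% of the tallied reads in 3 samples and 17.29% in LY500307 replicate 2. Epithelial EPCAM held from 6213 to 8327 reads, ERBB2 from 1452 to 2060 and KRT18 from 668 to 1030, while KRT8 held from 9 to 33. The sort marker ALDH1A1 held from 134 to 185 reads. The leukocyte gene PTPRC and the endothelial gene PECAM1 held at most 4 reads in any sample, whereas the stromal genes LUM (491 to 544) and DCN (263 to 283) were counted at a similar level in both groups. HBB, also read as a marker of other cells, held from 15 to 52 reads. The LY500307 samples lay further apart than the vehicle samples. Per degree of freedom, the chi-square of the gene counts was 45.3 within the LY500307 pair and 5.26 within the vehicle pair, and for complex I most large differences rested on LY500307 replicate 2.

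Transcripts of complex I were on balance slightly higher with LY500307, in an uneven way. The log2 fold change was positive for 35 of 39 subunit genes and for 2 of 4 assembly factor genes, where 50.0% of the 14473 genes tested were positive, but for only 23 subunit genes once a trend with transcript length was removed. Its median was 0.17 over the subunits and 0.10 over the assembly factors, beside a value near 0 over all genes tested. Levels are given as CPM (read counts relative to the library size) scaled by edgeR's TMM factors, SE is the standard error of the log2 fold change, and a gene met the criteria, which were those of the study's methods, with an unadjusted p below 0.05 and a log2 fold change above 0.5 in size. With edgeR's quasi-likelihood test, 5 subunit genes (NDUFA2, NDUFA4, NDUFC2, NDUFS3 and NDUFB11) and 1 assembly factor gene (NDUFAF3) met them as higher, and 0 met them as lower. Among all genes tested, 2.76% met them as higher and 1.86% as lower. After Benjamini-Hochberg adjustment over all genes tested, 0 of the 43 members and 0 genes in all had an adjusted p below 0.05 with edgeR. An unadjusted p below 0.05 was reached by 9 members and 1678 genes in all. With DESeq2, 20 genes passed, of which 1, NDUFAF3, was a member.

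**Figure D1:**
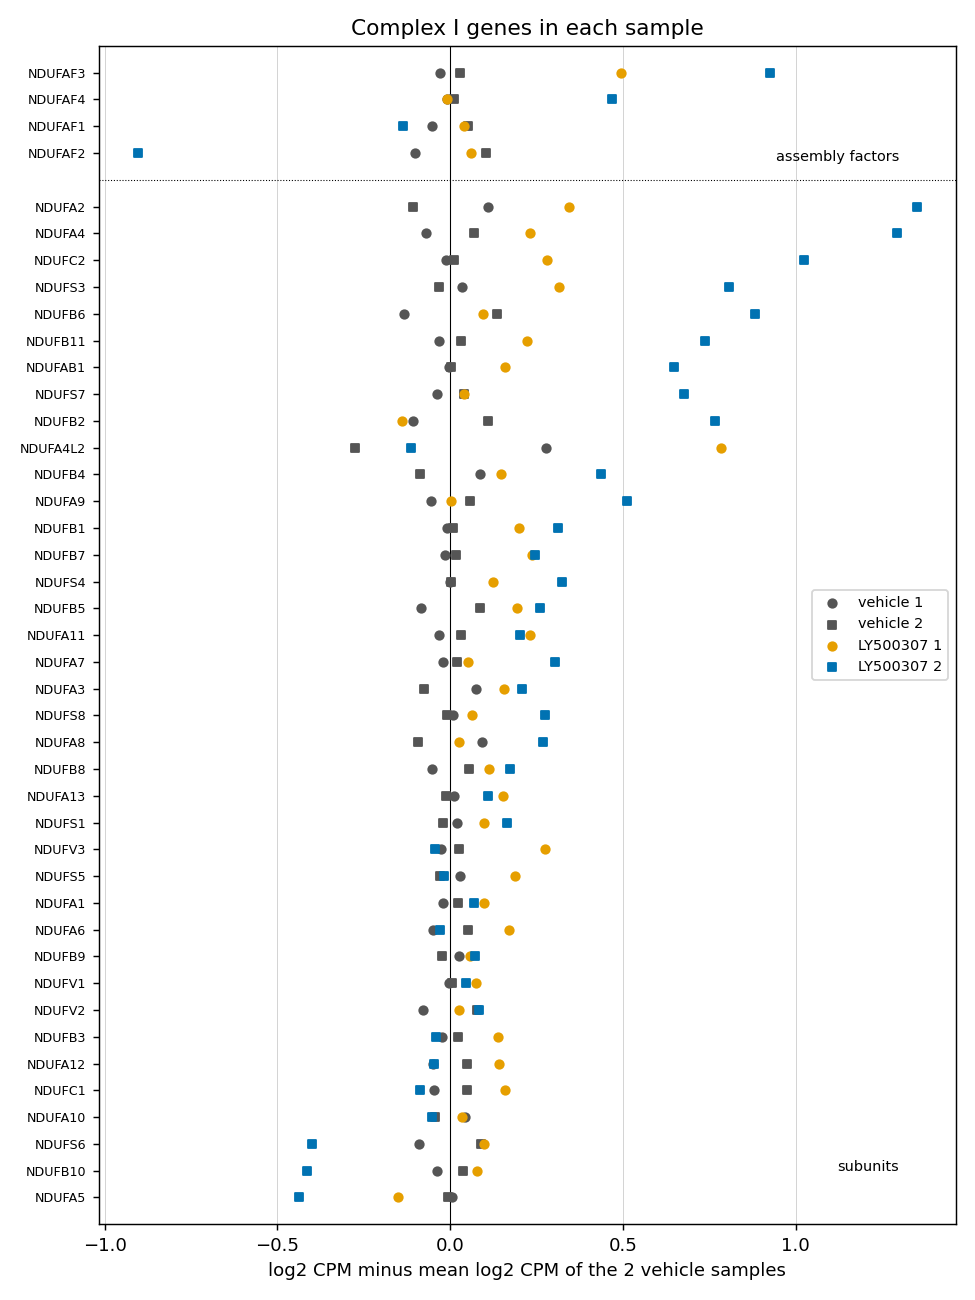
Each row is 1 complex I gene (42 of the 43 are drawn), with subunits below the dotted line and assembly factors above it. The horizontal axis is log2 CPM minus the mean log2 CPM of the 2 vehicle samples. Grey points are vehicle samples, orange points LY500307 replicate 1 and blue points LY500307 replicate 2. Blue points spread from -0.90 (NDUFAF2) to 1.35 (NDUFA2), and most orange points lie within 0.35 of 0, apart from NDUFAF3 at 0.49 and NDUFA4L2 at 0.78.

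Both LY500307 samples lay above both vehicle samples for 22 subunit genes and 1 assembly factor gene, a separation found for 24.2% of all genes tested. The opposite order was found for 1 subunit gene, NDUFA5, and for 24.4% of all genes tested. The other 19 members overlapped between the groups.

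The promoters of complex I genes were read from RefSeq (GRCh38.p14), as the 250 bases before each gene's start, to show which of the letters bound by the regulators NRF1 and GABPA and by estrogen receptors they hold. Of the 43 members, 36 matched, with 46 promoters. The core of the NRF1 motif, GCATGCGC on either strand, was found in 10.9% of these promoters and in 2.63% of 35116 promoters in all. The ETS core bound by GABPA, CCGGAAG on either strand, was in 13.0% and 8.52%. The estrogen response element, as GGTCA and TGACC separated by any 3 bases, was in 0 of the 46 promoters and in 0.0399% of all. Its single arm GGTCA, on either strand, was in 37% and 32.6%. These are matches of letters only. Of the 6 genes that met the criteria, 4 had a promoter in the table, and the NRF1 core was in 0 of these, the ETS core in that of NDUFS3 and the single arm in those of NDUFA2 and NDUFAF3.

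Promoters that hold these letters are given here for 4 subunit genes, 5′ to 3′ on the strand of the gene and ending at the base before its start. NDUFS3 and NDUFA2 are shown because they met the criteria, NDUFB4 and NDUFS6 because they hold the NRF1 core and lay on opposite sides of 0 in LY500307 replicate 2. Capitals mark ETS cores in NDUFS3, single arms in NDUFA2 and NRF1 cores in NDUFB4 (a pair of matches that overlap) and NDUFS6. The promoter of NDUFS3 lies at chr11:47578824-47579073 on the plus strand. The promoter of NDUFA2 lies at chr5:140647631-140647880 on the minus strand. The promoter of NDUFB4 lies at chr3:120596086-120596335 on the plus strand. The promoter of NDUFS6 lies at chr5:1801157-1801406 on the plus strand.
NDUFS3: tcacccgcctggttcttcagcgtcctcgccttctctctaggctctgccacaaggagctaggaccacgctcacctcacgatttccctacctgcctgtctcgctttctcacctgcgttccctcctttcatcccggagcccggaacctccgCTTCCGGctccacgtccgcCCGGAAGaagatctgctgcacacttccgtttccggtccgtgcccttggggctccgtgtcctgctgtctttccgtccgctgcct
NDUFA2: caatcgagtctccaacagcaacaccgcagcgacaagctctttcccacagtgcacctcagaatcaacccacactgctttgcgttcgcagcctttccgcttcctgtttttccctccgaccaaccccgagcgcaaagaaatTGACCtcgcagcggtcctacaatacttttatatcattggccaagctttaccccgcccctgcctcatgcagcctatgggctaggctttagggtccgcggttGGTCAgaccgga
NDUFB4: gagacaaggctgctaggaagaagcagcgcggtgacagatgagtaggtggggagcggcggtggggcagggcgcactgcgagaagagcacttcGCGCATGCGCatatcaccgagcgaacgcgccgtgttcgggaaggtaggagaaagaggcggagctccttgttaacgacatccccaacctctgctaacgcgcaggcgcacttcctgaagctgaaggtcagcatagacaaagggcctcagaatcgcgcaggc
NDUFS6: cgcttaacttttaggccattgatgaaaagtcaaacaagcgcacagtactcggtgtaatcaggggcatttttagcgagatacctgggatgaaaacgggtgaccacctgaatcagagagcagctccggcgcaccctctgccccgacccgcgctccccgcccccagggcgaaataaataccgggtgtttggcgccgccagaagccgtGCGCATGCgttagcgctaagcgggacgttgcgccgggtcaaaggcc

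NDUFB4, a membrane arm subunit, was at 73.4 and 65.0 CPM with vehicle and at 76.5 and 93.5 CPM with LY500307, a log2 fold change of 0.30 (SE 0.13, adjusted p = 0.431 from edgeR). NDUFS6, with the same core letters in its promoter, had its lowest level in LY500307 replicate 2. The 5 genes with an NRF1 core were NDUFA5, NDUFA6, NDUFB4, NDUFS6 and NDUFS7, and their log2 fold changes ran from -0.29 for NDUFA5 to 0.39 for NDUFS7.

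Among the assembly factors, NDUFAF3 had the smallest unadjusted p of all members. With its partner NDUFAF4 it helps to assemble the quinone module around the core subunits. NDUFAF3 spans chr3:49057892-49060928 of GRCh37, plus strand. Its level was 27.2 and 28.3 CPM in the vehicle samples and 39.0 and 52.7 CPM in the LY500307 samples. Both LY500307 samples stood above both vehicle samples, and replicate 2 was the higher. The means were 27.7 ± 0.774 CPM and 45.8 ± 9.65 CPM (SD, n = 2 each), a log2 fold change of 0.73 (SE 0.16, adjusted p = 0.422 from edgeR). DESeq2 gave NDUFAF3 an adjusted p of 0.0460. With all samples in edgeR its adjusted p was 0.145 with the replicate block, 0.471 with the length correction and 0.507 with the GC correction. It was below 0.05 with the replicate block and the GC correction together. Without LY500307 replicate 1 the log2 fold change of NDUFAF3 was 0.93. Without LY500307 replicate 2 its log2 fold change was 0.49, just under the limit. In the annotation its exons overlap those of DALRD3 on the opposite strand.

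NDUFAF4 did not meet the criteria. Its level was 26.5 and 26.9 CPM with vehicle and 26.5 and 36.9 CPM with LY500307, so that replicate 1 was within the vehicle samples and replicate 2 above them. The log2 fold change was 0.25 (SE 0.17, adjusted p = 0.541 from edgeR). NDUFAF1, which acts with ECSIT and ACAD9 on the membrane arm, stood at 27.3 and 29.3 CPM with vehicle and at 29.1 and 25.8 CPM with LY500307. These samples overlapped, and the log2 fold change was -0.05 (SE 0.13). NDUFAF2, a relative of the subunit NDUFA12 that acts late in assembly, had the lowest log2 fold change of all members, at -0.35 (SE 0.27, adjusted p = 0.582 from edgeR). Its level was 45.4 and 52.4 CPM with vehicle, and 50.9 and 26.1 CPM with LY500307. The first LY500307 sample lay between the vehicle samples and the second was far below them. Without LY500307 replicate 2 the log2 fold change of NDUFAF2 was 0.06, and without replicate 1 it was -0.90, which met the criteria as lower.

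Further assembly factors of this family are listed in the files under older symbols, namely C20orf7 (NDUFAF5), C8orf38 (NDUFAF6), C2orf56 (NDUFAF7) and C17orf89 (NDUFAF8). All 4 were tested and 0 met the criteria. C17orf89, whose product stabilises NDUFAF5, was counted 767 and 742 times with vehicle and 1093 and 1051 times with LY500307, a log2 fold change of 0.31 (SE 0.12, adjusted p = 0.427 from edgeR). It passed the p limit but not the 0.5 limit. It missed the p limit under several alternatives, among them DESeq2, the replicate block and the length and GC corrections. C2orf56, which encodes a methyltransferase, had a log2 fold change of -0.17 (SE 0.13). The values were -0.04 for C20orf7 and 0.28 for C8orf38. The median of the 4 genes was 0.12, but it was -0.02 without vehicle replicate 2, so no direction can be given for them as a set.

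Of 11 other complex I assembly genes, 1 met the criteria as higher. This was TMEM70, a membrane protein that also serves ATP synthase assembly, counted 620 and 550 times with vehicle, and 826 and 1131 times with LY500307. Its log2 fold change was 0.55 (SE 0.19, adjusted p = 0.422 from edgeR). C7orf44, also known as COA1, had a log2 fold change of 0.44 (adjusted p = 0.422 from edgeR), where the p limit was passed and the 0.5 limit was not. The partners of NDUFAF1 were near 0, at 0.08 for ECSIT and -0.06 for ACAD9. The median of the 11 genes was 0.13 with all samples and -0.003 without LY500307 replicate 2, and 0 of them met the criteria without LY500307 replicate 2 or without vehicle replicate 2.

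The 7 nuclear core subunits carry the electron path, and 1 of them, NDUFS3, met the criteria. NDUFS3 belongs to the quinone module and spans chr11:47586888-47606114 of GRCh37, plus strand. Its level was 66.9 and 63.9 CPM in the vehicle samples and 81.3 and 114 CPM in the LY500307 samples. The groups did not overlap. The means were 65.4 ± 2.15 CPM and 97.9 ± 23.4 CPM (SD, n = 2 each), a log2 fold change of 0.58 (SE 0.16, adjusted p = 0.422 from edgeR).

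NDUFS7 holds the last iron-sulfur cluster before ubiquinone. It was at 33.2 and 35.0 CPM with vehicle and at 35.1 and 54.5 CPM with LY500307. Replicate 1 was level with the higher vehicle sample, and the log2 fold change of 0.39 (SE 0.20, adjusted p = 0.445 from edgeR) rested on replicate 2. Leaving out LY500307 replicate 2 gave 0.04, and leaving out replicate 1 gave 0.68, where NDUFS7 met the criteria. NDUFS8, another iron-sulfur subunit, was at 45.9 and 45.3 CPM with vehicle and at 47.6 and 55.1 CPM with LY500307, a log2 fold change of 0.17 (SE 0.12).

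The core subunits of the NADH module differed little between the groups. NDUFV1, which binds NADH and the flavin, was at 128 CPM in each vehicle sample and at 135 and 132 CPM in the LY500307 samples, a log2 fold change of 0.06 (SE 0.09). NDUFV2 was at 43.4 and 48.4 CPM with vehicle and at 46.7 and 48.5 CPM with LY500307, with a log2 fold change of 0.05 (SE 0.12). NDUFS1, the largest subunit of the matrix arm, was at 205 and 200 CPM with vehicle and at 217 and 227 CPM with LY500307. Its log2 fold change was 0.13 (SE 0.10, adjusted p = 0.569 from edgeR). These differences did not pass the test, and for NDUFV1 and NDUFV2 the sign turned with the length correction.

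Among the genes listed as subunits, the 3 highest log2 fold changes with all samples were those of NDUFA2, NDUFA4 and NDUFC2, all outside the core. NDUFA2, a small thioredoxin-like subunit of the matrix arm, spans chr5:140018325-140027356 of GRCh37, minus strand. Its level was 20.2 and 17.3 CPM in the vehicle samples and 23.7 and 47.6 CPM in the LY500307 samples. Replicate 2 was near the double of replicate 1, so the SD of the LY500307 group, 16.9 CPM around a mean of 35.7 CPM (n = 2), was as large as the difference from the vehicle mean of 18.8 ± 1.99 CPM. The log2 fold change was 0.93 (SE 0.29, adjusted p = 0.422 from edgeR). Its exons overlap those of IK and TMCO6 on the opposite strand.

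NDUFA4 was first described in complex I and has since been placed in complex IV, so it is given apart from the others. It was at 54.1 and 59.6 CPM with vehicle and at 66.6 and 139 CPM with LY500307. The log2 fold change was 0.85 (SE 0.29, adjusted p = 0.422 from edgeR). With DESeq2, the tool of the study, it was 0.86 and NDUFA4 missed the p limit. Its relative NDUFA4L2, known as a hypoxia-inducible gene, held only 17 and 11 reads with vehicle and 28 and 14 reads with LY500307. These samples overlapped, and a difference of NDUFA4L2 was not detectable at this depth. Without NDUFA4 and NDUFA4L2, 4 of 37 subunit genes met the criteria and the median log2 fold change was 0.15.

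NDUFC2 and NDUFB11, subunits of the membrane arm, also met the criteria. NDUFC2 was at 11.2 and 11.4 CPM with vehicle and at 13.8 and 23.0 CPM with LY500307, a log2 fold change of 0.70 (SE 0.24, adjusted p = 0.422 from edgeR). Its exons are shared with NDUFC2-KCTD14 on the same strand, and reads that fit both are counted for neither when each read must belong to 1 gene. NDUFB11, an X-linked gene, was at 59.96 and 62.63 CPM with vehicle and at 71.5 and 102 CPM with LY500307. Its log2 fold change of 0.50 (SE 0.16, adjusted p = 0.422 from edgeR) was at the edge of the criteria, and was 0.47 without vehicle replicate 1, 0.32 with the length correction, 0.40 with the GC correction and 0.55 with scaling by library totals.

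**Figure D2:**
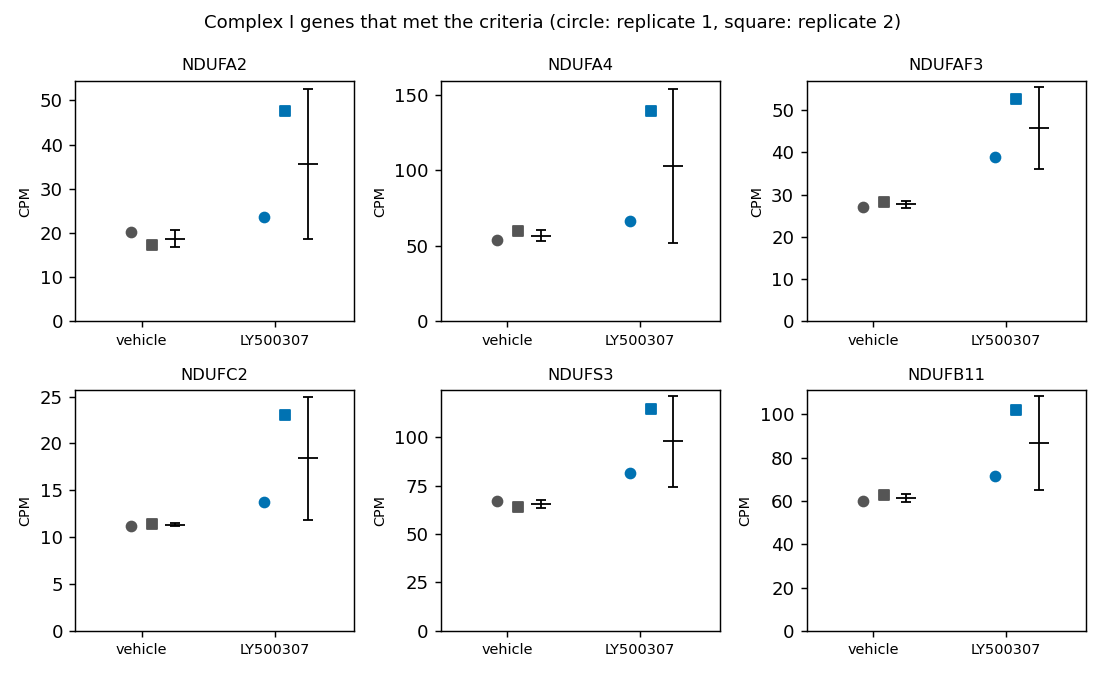
The 6 complex I genes that met the criteria are plotted as CPM in each sample, with vehicle in grey and LY500307 in blue. Circles are replicate 1, squares are replicate 2, and bars give the mean and SD (n = 2). In each gene both LY500307 samples lie above both vehicle samples, and LY500307 replicate 2 is the highest, from 23.0 CPM for NDUFC2 to 139 CPM for NDUFA4.

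Several accessory subunits came near the limits without meeting both. NDUFB6 missed the p limit and had a log2 fold change of 0.54 (SE 0.24, adjusted p = 0.431 from edgeR), with 18.1 and 21.9 CPM in the vehicle samples and 21.3 and 36.7 CPM in the LY500307 samples, which overlapped. NDUFB6 met the criteria with DESeq2, with the GC correction, without the filter on low counts and without vehicle replicate 2 (log2 fold change 0.68). NDUFAB1, the mitochondrial acyl carrier protein, also serves fatty acid and iron-sulfur cluster synthesis. It was at 80.4 and 80.8 CPM with vehicle and at 90.0 and 126 CPM with LY500307, a log2 fold change of 0.42 (SE 0.16, adjusted p = 0.422 from edgeR). For NDUFAB1 this was 0.16 without LY500307 replicate 2, 0.66 without replicate 1, where it met the criteria, and 0.25 with the length correction, where it missed the p limit. NDUFB1, like NDUFAB1, passed the p limit but not the fold limit, and had a log2 fold change of 0.26 (adjusted p = 0.427 from edgeR), with 51.1 and 51.6 CPM with vehicle and 58.9 and 63.7 CPM with LY500307. NDUFB1 missed the p limit under several alternatives, among them DESeq2, the fits without either vehicle sample and the length correction, where its log2 fold change was 0.11.

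Small differences with close replicates were seen in a few subunits. NDUFB7 was at 36.8 and 37.6 CPM with vehicle and at 43.8 and 44.1 CPM with LY500307. The LY500307 samples of NDUFB7 were almost level, and the log2 fold change was 0.24 (SE 0.11, adjusted p = 0.431 from edgeR). NDUFA11 was at 64.2 and 67.2 CPM with vehicle and at 77.0 and 75.6 CPM with LY500307, a log2 fold change of 0.22 (SE 0.10, adjusted p = 0.432 from edgeR). With the length correction these values were 0.07 for NDUFB7 and 0.05 for NDUFA11.

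The subunits below 0 were few. NDUFA5, a subunit of the matrix arm, was at 86.7 and 85.9 CPM with vehicle and at 77.7 and 63.7 CPM with LY500307. Its log2 fold change was -0.29 (SE 0.12, adjusted p = 0.428 from edgeR), where the p limit was passed and the 0.5 limit was not. Leaving out 1 sample moved NDUFA5 between -0.15 and -0.43, the former without LY500307 replicate 2, and with the GC correction it was -0.12. It missed the p limit under several alternatives, among them DESeq2, library totals, both corrections and the fits without LY500307 replicate 2 or without either vehicle sample. NDUFB10 of the membrane arm was at 122 and 129 CPM with vehicle and at 132 and 94.0 CPM with LY500307. NDUFS6, a zinc-binding subunit of the NADH module, was at 77.7 and 88.0 CPM with vehicle and at 88.4 and 62.7 CPM with LY500307. In NDUFB10 and NDUFS6, LY500307 replicate 1 was above or level with the vehicle samples and replicate 2 was below them. Their log2 fold changes were -0.15 and -0.13, and without LY500307 replicate 2 they were 0.08 and 0.09. The remaining subunit below 0 was NDUFA10, at -0.01.

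By family, the median log2 fold change was 0.16 over 14 NDUFA genes, 0.24 over 11 NDUFB genes, 0.37 over 2 NDUFC genes, 0.15 over 8 NDUFS genes and 0.06 over 3 NDUFV genes. Over the nuclear core subunits it was 0.13 and over the 32 accessory subunits 0.18. NDUFA4 and NDUFA4L2 are counted among these NDUFA genes and accessory subunits. The criteria were met by 2 NDUFA genes, by 1 gene each of the NDUFB, NDUFC and NDUFS genes and by 0 NDUFV genes. Differences between these families were not tested.

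The 2 LY500307 samples gave different pictures of complex I. Relative to the vehicle mean, the median over the subunits was 0.14 on the log2 scale in replicate 1 and 0.20 in replicate 2. In replicate 1, 1 of 43 members (NDUFA4L2, at 28 reads) lay more than 0.5 above the vehicle mean, beside 5.16% of all genes tested. In replicate 2, 11 members did, beside 12.0% of all genes, and NDUFAF2 lay more than 0.5 below it. The difference between replicates was above 0.5 in size for 10 members in the LY500307 pair and for 1 member (NDUFA4L2) in the vehicle pair. Over all genes tested these shares were 17.5% and 11.2%. NDUFB2 was at 24.7 and 28.7 CPM with vehicle and at 24.2 and 45.3 CPM with LY500307, and NDUFA9 was at 48.9 and 52.8 CPM and at 50.9 and 72.5 CPM. In both genes replicate 1 did not stand above the vehicle samples, while replicate 2 was the highest sample.

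**Figure D3:**
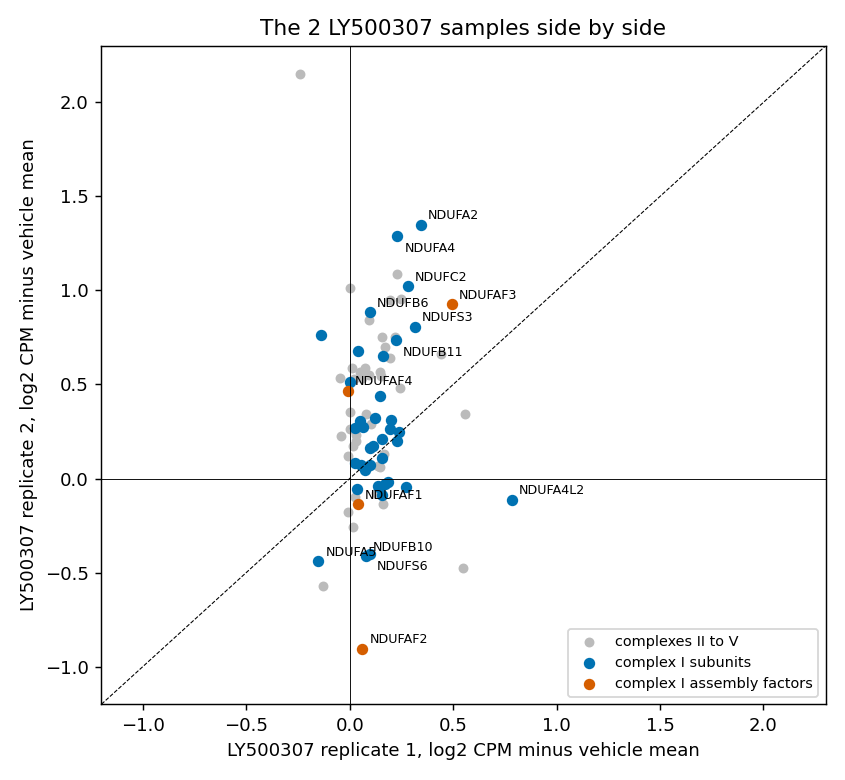
Each point is 1 gene (42 of the 43 complex I genes are drawn), with LY500307 replicate 1 on the horizontal axis and LY500307 replicate 2 on the vertical axis, each as log2 CPM minus the vehicle mean. Blue points are complex I subunits, orange points complex I assembly factors and grey points genes of complexes II to V, and the dashed line marks equal values. NDUFA2 lies at 0.34 and 1.35, NDUFAF3 at 0.49 and 0.93, and NDUFAF2 at 0.06 and -0.90.

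The counts changed accordingly when a sample was left out. Without LY500307 replicate 2, 0 members met the criteria, beside 0.967% of all genes that met them as higher. The log2 fold changes of the 6 genes were then 0.34 for NDUFA2, 0.23 for NDUFA4, 0.28 for NDUFC2, 0.31 for NDUFS3, 0.22 for NDUFB11 and 0.49 for NDUFAF3. All 6 stayed positive, as they had to where both LY500307 samples lay above both vehicle samples. Among all members, 39 of 43 were positive, beside 49.4% of all genes. In this fit, as in that without LY500307 replicate 1, the single LY500307 sample was assumed to vary like the vehicle samples. The LY500307 samples in fact lay further apart than the vehicle samples. Without LY500307 replicate 1, 10 subunit genes and NDUFAF3 met the criteria as higher and NDUFAF2 as lower, beside 7.45% of all genes as higher, and 29 members were positive. Without vehicle replicate 1, NDUFB11 no longer met the criteria, and without vehicle replicate 2, NDUFB6 met them as well.

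Complex I transcripts are short. The transcript used for each subunit gene had a median length of 696 bases, and 69.2% were under 1000 bases, beside 6.90% of all genes tested with a known length. Short transcripts moved in the same direction as the subunits. All 952 genes tested with a transcript under 1000 bases had a median log2 fold change of 0.15, with 0.09 in LY500307 replicate 1 and 0.24 in replicate 2, and 9.66% of them met the criteria as higher. The 12852 genes with a longer transcript had a median of -0.005, and 2.29% of them met the criteria as higher. The 29 members under 1000 bases had a median of 0.18, with 0.14 in replicate 1 and 0.21 in replicate 2, and 13.8% of them met the criteria. The 14 longer members had a median of 0.13, and 2 of them (14.3%), NDUFA4 and NDUFC2, met the criteria. When a trend with transcript length was removed within each sample, the median over the subunits was 0.05 in place of 0.17 and 23 of 39 subunit genes were positive. NDUFA2, NDUFA4, NDUFC2 and NDUFAF3 met the criteria under this correction, and NDUFS3 (0.43) and NDUFB11 (0.32) did not. Of the 14473 genes tested, 285 met the criteria as higher under it, against 400 without it. With a correction for GC content the median over the subunits was 0.11 and over the assembly factors 0.19. The part of transcript length in the result was not tested beyond this correction.

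**Figure D4:**
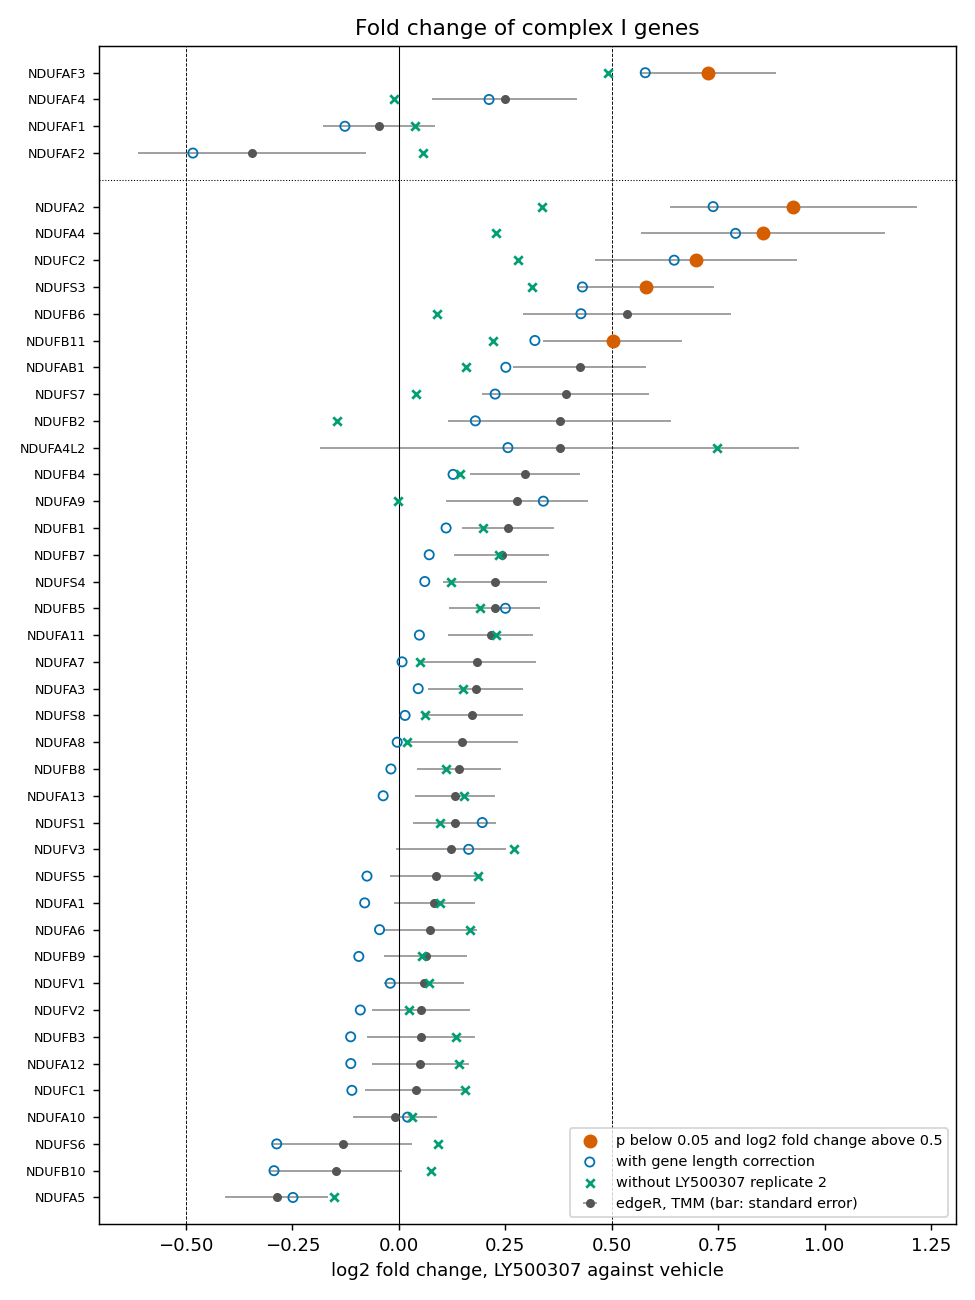
Each row is 1 complex I gene (42 of the 43 are drawn), with subunits below the dotted line and assembly factors above it, and the horizontal axis is the log2 fold change of LY500307 against vehicle. Points with bars give edgeR's estimate and its SE, orange points mark the 6 genes that met the criteria, open circles the value with the length correction and crosses the value without LY500307 replicate 2. Dashed lines mark 0.5 and -0.5. No cross lies beyond 0.5 apart from NDUFA4L2 at 0.75, which did not meet the p limit.

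Nuclear genes of complexes II to V, were listed by symbol for comparison. Of 43 tested, 38 had a positive log2 fold change, their median was 0.27, and 6 met the criteria as higher (ATP5D, ATP5G1, ATP5G2, ATP5O, COX8A and UQCRQ). COX4NB, which this pattern of symbols includes, encodes a subunit of the ER membrane complex, and without it 37 of 42 genes were positive, the median was 0.245 and the same 6 met the criteria. The medians in LY500307 replicates 1 and 2 were 0.09 and 0.35. Without LY500307 replicate 2, 1 of these genes met the criteria, and with the length correction 1 did. Whether complex I and the other complexes differed was not tested.

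The regulators known to control nuclear respiratory genes did not meet the criteria. Of the 8 that were tested, 1 had a positive log2 fold change, ESRRA at 0.24 (SE 0.14, adjusted p = 0.496 from edgeR). The value was -0.17 for NRF1, -0.19 for GABPA, -0.06 for TFAM and -0.35 for the coactivator gene PPARGC1B (adjusted p = 0.422 from edgeR), whose unadjusted p passed the limit but whose fold change did not. The median of the 8 genes was -0.10. PPARGC1A held at most 3 reads in any sample and was not tested.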

How the data were processed

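Raw counts per gene symbol were deposited by the authors for each of the 4 samples. Per the labels, reads were aligned to hg19 with TopHat2 2.0.8b and counted with HTSeq. The annotation version and the strand setting are not given in the sources used here. Library preparation is given as total RNA (single reads of 50 nt) in the labels and as stranded mRNA in the study's methods. The 5 tally lines, which include reads with several alignments (from 32.27% to 33.42% of tallied reads), were left out. Genes with many annotated pseudogenes, such as NDUFA5 and NDUFB4 (12 each), and overlapping genes are therefore uncertain. How alike these pseudogenes are was not measured.

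The test was the quasi-likelihood F test of edgeR 4.0.16 under R 4.3.3 (TMM scaling, filterByExpr, Benjamini-Hochberg adjustment over all genes tested). Standard errors were derived from the fold change and its F value (absolute log2 fold change over root F). DESeq2 1.42.0, which the study used, was an alternative, as were other scalings and filters, a replicate block, leaving out each sample, and removal of a loess trend (span 0.3, prior count 2 for log2 CPM) with the length or GC content of 1 transcript per gene from GENCODE v44 on GRCh37, to which 91.8% of symbols matched. For 1 gene and 2 samples against 2, exact permutation reaches a two-sided p of 0.333 at the least. The edgeR step was tested on simulated data, where 94.5% of 200 genes given a log2 difference of 1, among 14473, met the criteria. Of the unchanged genes, 283 met them too. Both groups were simulated with the same spread, whereas in the data the LY500307 samples lay further apart than the vehicle samples. These rates may therefore not hold for the data. Totals ran from 28841701 to 34943882 counts, and the spread between replicates exceeded counting error.

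The 43 NDUF genes that were tested entered the counts and medians, 1 member is not reported here by name or value, and full values are given for members that met the criteria, other core subunits and assembly factors. Values of other members, from NDUFB6 to NDUFV3, were chosen after they were seen. The members and lists were chosen with earlier results of these data known.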

Additional observations from a re-analysis of the deposited data

How the results depend on the processing

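With all 4 samples, 5 subunit genes met the criteria as higher, as they did in number with the stricter filter, library totals, the GC correction, DESeq2 and edgeR with DESeq2 size factors. Without a filter 6 did. The median over the subunits, 0.17, was between 0.16 and 0.21 under these settings apart from the GC correction, with the highest value from library totals. The length correction gave 3 subunit genes and a median of 0.045, 0 other complex I assembly genes and 1 gene of complexes II to V as higher. Of all genes tested, 285 were called higher with it, against 400 in the main fit. The GC correction gave medians of 0.11 over the subunits and 0.19 over the assembly factors. The replicate block, by the number in the labels, gave 4 subunit genes and NDUFAF3, and 1 gene of complexes II to V as lower. Deviations of same-numbered samples correlated at -0.07 over all genes tested and at -0.24 over those with a mean log2 CPM above 5, so the numbers were not taken to pair the samples. The crossed block, added after this was seen, called 781 genes against 669, with 381 against 0 at an adjusted p below 0.05, and 1 gene of complexes II to V as lower. The replicate block with the length correction gave 3 subunit genes as higher, a median of 0.045, NDUFAF2 as the 1 assembly factor that was lower, a median of 0.062 over the NDUFAF genes under older symbols, 0 other assembly genes, and 0 genes higher and 1 lower in complexes II to V. The replicate block with the GC correction gave a median of 0.10 over the subunits and 1 gene of complexes II to V as lower, and brought 77 genes below an adjusted p of 0.05, NDUFA2, NDUFA4 and NDUFAF3 among them. Why these settings differ was not tested.

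Of 27 members followed by name through these settings, 2 changed sign with all 4 samples. These were NDUFV1 (-0.020 with the length correction, -0.048 with the GC correction, -0.021 and -0.050 with the block added) and NDUFV2 (-0.091 with the length correction and -0.089 with the block added). Members outside these 27 changed sign too, such as NDUFA12 (0.05, and -0.11 with the length correction). Over all 43 members, 37 were positive in the main fit and 25 with the length correction. With library totals alone the share of calls that were higher was 69.7% against 59.8%, and with the length correction it was 49.4%.

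With 1 sample left out, counts ran from 0 to 10 for higher subunit genes, from 0 to 1 for higher and from 0 to 1 for lower assembly factors, from 0 to 3 for other assembly genes, and from 1 to 20 higher and from 0 to 2 lower in complexes II to V. Medians ran from -0.02 to 0.20 for the NDUFAF genes under older symbols and from -0.003 to 0.27 for the other assembly genes. The log2 fold change ran from -0.024 to 0.133 for NDUFV2, from -0.131 to 0.037 for NDUFAF1, from -0.902 to 0.055 for NDUFAF2, from -0.011 to 0.473 for NDUFAF4, from -0.14 to 0.75 for NDUFA4L2, from -0.408 to 0.075 for NDUFB10, from -0.396 to 0.092 for NDUFS6, from -0.001 to 0.52 for NDUFA9, from -0.15 to 0.77 for NDUFB2 and from -0.039 to 0.271 for NDUFV3. With DESeq2, NDUFB6 met the criteria and NDUFA4 did not.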
